A study of Mus musculus with 8 samples.

Results

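Interferon regulatory factors (IRFs) were followed in mouse Tregs that had been differentiated for 2 days. The members were taken by gene symbol and are 6 transcription factors, Irf1, Irf2, Irf3, Irf5, Irf7 and Irf8, and 2 genes for proteins that bind IRF2, Irf2bp1 and Irf2bp2. All 8 were found among the 28239 gene symbols of the count table, and all 8 passed the expression filter with 12700 genes in all. The libraries came from naïve CD4+ T-cells of the spleens of 4 Alox15-/- mice and 4 WT mice, both described as C57BL/6. According to the methods, mice of both sexes aged 10 to 12 weeks were used, and the WT and the Alox15-/- mice came from different suppliers. Cells of both groups received the same IL-2 (100 U/ml), the same TGF-β (5 ng/ml) and 1 bead carrying CD3 and CD28 antibodies per cell, and no sort of FOXP3-positive cells before RNA extraction is described. Their RNA was profiled by MACE-seq, which reads transcripts close to their 3′ ends, so that 1 gene gives 1 count per library.

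IRFs share a DNA-binding domain that recognises repeats of the letters GAAA, the interferon-stimulated response element (ISRE). In the textbook circuit IRF3 and IRF7 are held in the cytoplasm until sensors of foreign nucleic acid activate the kinases TBK1 and IKKε, and then switch on type I interferon genes, while interferon receptors signal through JAK kinases and STAT factors to raise many genes, Irf7 and Irf1 among them. IRF1 is an activator and IRF2 mostly its antagonist at the same sites. IRF8 and IRF5 are best known from myeloid cells, dendritic cells and B cells, although activated T-cells also express IRF8.

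The libraries held between 3723151 and 9538962 counts. Alox15, the targeted gene, was higher in the libraries labelled Alox15-/- (63.7 to 70.5 CPM, counts per 1000000 counts of the library) than in those labelled WT (1.88 to 9.02 CPM), which goes against the labels (the part of the gene that the allele lacks is not given in the sources used here). Whether labels were exchanged was not tested. Foxp3, which defines Tregs, was at 71.7, 95.5, 93.0 and 114 CPM in Alox15-/- replicates 1 to 4 and at 109, 102, 195 and 93.4 CPM in WT replicates 1 to 4 (log2 fold change -0.42, edgeR adjusted p = 0.655). Each direction below is that of the libraries labelled Alox15-/- relative to the libraries labelled WT. T-cell markers were present in every library, with Cd3e at 249 to 296 CPM and Cd4 at 210 to 352 CPM, and their sum was 3498 to 3666 CPM in the libraries labelled Alox15-/- and 3712 to 3905 CPM in WT, without overlap. Summed markers of myeloid cells (51.7 to 352 CPM against 14.1 to 20.4 CPM in WT), of mast cells and basophils (143 to 368 CPM against 59.3 to 84.0 CPM) and of erythroid cells (908 to 3491 CPM against 33.9 to 123 CPM) were higher in each of the libraries labelled Alox15-/- than in any WT library, as were those of eosinophils (21.4 to 74.1 CPM against 1.25 to 10.4 CPM) and of NK and γδ T-cells (107 to 208 CPM against 58.6 to 72.0 CPM). Summed markers overlapped for dendritic cells (86.9 to 117 CPM against 74.2 to 108 CPM) and for B cells (215 to 312 CPM against 215 to 310 CPM). The B-cell sum was mostly Ighm, and the other 9 B-cell markers, split off after their values were seen, summed to 7.0 to 10.4 CPM against 11.5 to 27.6 CPM in WT, lower in each library labelled Alox15-/-. The threshold for a call, given below, was passed by 6 of 7 tested myeloid markers, 7 of 8 of mast cells and basophils, 5 of 5 erythroid, 2 of 2 eosinophil and 4 of 7 NK and γδ T-cell markers, all higher, and by 1 of 3 B-cell markers, Ms4a1, which was lower. It was passed by 0 of 4 dendritic cell markers (0 at an unadjusted p under 0.05), by 0 of 2 CD8 T-cell markers (2 at an unadjusted p under 0.05, both lower) and by 0 of 11 T-cell markers (2 at an unadjusted p under 0.05), and no listed marker in the table was at 0 in all libraries. The filter asks for 2 CPM in 4 libraries, so a marker near 0 in 1 group can be tested through the other group alone. S100a9 (0 to 0.94 CPM in WT) and Ms4a1 (0.14 to 0.81 CPM under the Alox15-/- label) were tested in this way. Of 8 listed eosinophil markers 2 were tested, and Ccr3, not tested, had 2 counts under the Alox15-/- label and 42 in WT. The shares called among tested markers are therefore no support for a direction. In bulk RNA fewer cells of a type and less RNA per cell cannot be told apart. WT replicate 4 lay farthest from the rest of its group, with a root mean square difference of 0.41 in log2 CPM over all tested genes, where the other 7 libraries had 0.29 to 0.37.

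Of the 8 members, 1 passed the adjusted threshold (12.5%), Irf7, which was higher in the libraries labelled Alox15-/-. Over all genes tested, 1.24% passed in either direction, 1.05% with higher and 0.197% with lower values in the libraries labelled Alox15-/-. The test was edgeR's quasi-likelihood test on raw counts with TMM scaling, which corrects library size for composition, and Benjamini–Hochberg adjustment over all 12700 genes at 0.05. In the log2 fold changes 4 members were above 0 and 4 below, with a median of 0.035, where the median of all genes tested was -0.0075. At an unadjusted p under 0.05 there were 2 members, Irf7 and Irf1, both higher, where 7.84% of all genes tested had such a p (4.46% higher and 3.38% lower). Since the libraries came from different mice, the p-values measure the spread between these animals.

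**Figure D1:**
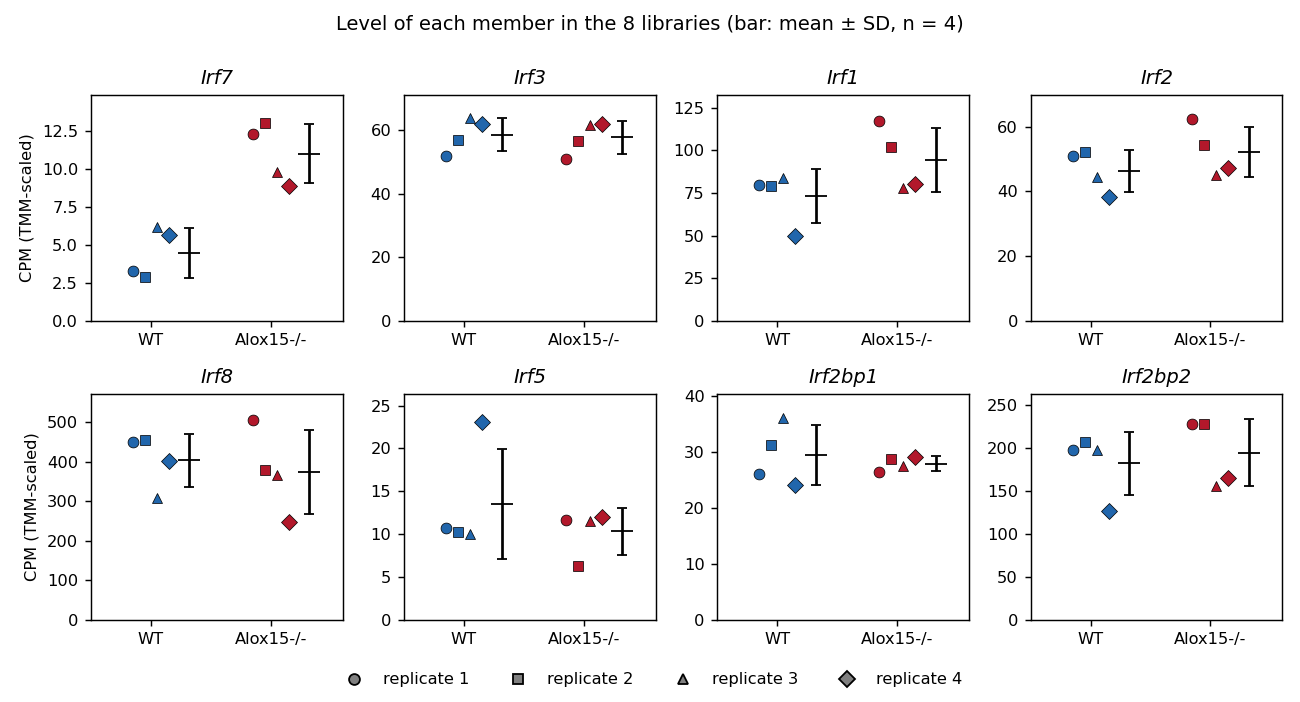
Level of each member in CPM (linear axis from 0, TMM-scaled) in the 4 WT libraries (blue) and the 4 libraries labelled Alox15-/- (red), with a symbol for each replicate number and the mean ± SD of the group beside the points. The groups do not overlap for Irf7, and WT replicate 4 (diamond) is apart from the other WT libraries for Irf1, Irf5 and Irf2bp2.

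Irf7, the factor that amplifies type I interferon production and is itself raised by interferon, was at 12.3, 13.0, 9.83 and 8.92 CPM in Alox15-/- replicates 1 to 4. In WT replicates 1 to 4 it was at 3.29, 2.88, 6.15 and 5.67 CPM. The lowest library labelled Alox15-/- was above the highest WT library, as for 5.25% of all genes tested in either direction and 2.74% with the same direction. Group means of 11.02 ± 1.96 CPM (SD, n = 4) and 4.50 ± 1.65 CPM (SD, n = 4) gave a 2.39-fold difference with a 95% interval of 1.63 to 3.51. On the log2 scale this was 1.26 with a standard error of 0.260 (edgeR adjusted p = 0.0226), the rank of Irf7 by p being 123 among all genes tested. A two-sided exact permutation test on the CPM gave p = 0.0286, the smallest that 4 libraries against 4 allow.

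These levels rested on 48 to 62 Irf7 counts per library labelled Alox15-/- and on 21, 18, 61 and 27 counts in the WT libraries. For the 18 counts of WT replicate 2 counting error alone gave an exact Poisson 95% interval of 1.71 to 4.56 CPM, and for the 62 counts of Alox15-/- replicate 4 one of 6.84 to 11.4 CPM. With 1 library at a time removed, Irf7 stayed past the threshold in 3 of the 8 refits. It did not pass without Alox15-/- replicate 1 (0.0946), 2 (0.0961) or 3 (0.061) or without WT replicate 1 (0.103) or 2 (0.0848), with log2 fold changes from 1.098 to 1.31 in these 5 refits. Without the deeply sequenced WT replicate 3 the log2 fold change was 1.495 (edgeR adjusted p = 0.0119). Myeloid marker sums in Alox15-/- replicates 1 to 4 were 91.3, 352, 219 and 51.7 CPM beside the Irf7 levels of 12.3, 13.0, 9.83 and 8.92 CPM, and the part of the marker-bearing cells in the Irf7 difference was not tested.

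Irf7 (ENSMUSG00000025498.15) is annotated at chr7:141262706-141266481 (GRCm38, minus strand) and has 9 to 10 exons in its basic transcripts. Its last 45 bases (chromosome 7, 141262706 to 141262750) overlap the 3′ end of Phrf1 on the other strand, and the strand setting of the counting is not given in the sources used here. Phrf1 was at 22.5 to 44.6 CPM under the Alox15-/- label and 26.3 to 48.7 CPM in WT, with a log2 fold change of -0.07 (edgeR adjusted p = 0.967). The log2 ratio of Irf7 to Phrf1 counts, which does not depend on library scaling, was -1.49, -0.79, -1.73 and -2.32 in the libraries labelled Alox15-/- and -3.00, -3.50, -2.99 and -2.56 in WT. The ratios of the groups did not overlap.

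The 250 bases before the RefSeq start site of Irf7 (chr7:141266425-141266674, minus strand, GRCm38.p6) are shown because Irf7 is the member that differed. Capitals mark TATAAA, the core of a common promoter element, which 13.6% of all 32851 RefSeq promoter windows (250 bases before to 50 after a start site) hold on either strand.
Irf7: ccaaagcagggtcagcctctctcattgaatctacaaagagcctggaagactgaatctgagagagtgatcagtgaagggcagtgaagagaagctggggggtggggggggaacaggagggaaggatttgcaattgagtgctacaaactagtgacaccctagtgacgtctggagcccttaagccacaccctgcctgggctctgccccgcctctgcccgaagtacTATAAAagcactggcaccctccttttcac
TATAAA began 29 bases before the start site. The ISRE core was searched as 2 GAAA repeats that any 2 bases separate (held by 3.44% of all windows on either strand) and the STAT-binding GAS element as TTCNNNGAA (8.30%). Neither was found in the 300 bases of the Irf7 window, which says only that these letters are not there. The GENCODE annotation places the gene's start within the bases shown.

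The 5 tested genes whose log2 CPM, centred on its own mean, lay nearest to that of Irf7 over the 8 libraries were Gm45837, Usp2, Atp8b4, Epsti1 and Padi2, with root mean square differences of 0.22, 0.26, 0.29, 0.29 and 0.30. Of these, Usp2, a ubiquitin-specific protease gene (log2 fold change 1.47, edgeR adjusted p = 0.00447), and Epsti1 (1.11, adjusted p = 0.0042) passed the threshold. Gm45837 shares its 3′ end with Pde2a on the same strand, and Usp2 and Padi2 have annotated genes across their 3′ ends on the other strand. Epsti1, a gene known to be raised by interferon, was at 14.4 to 21.7 CPM in the libraries labelled Alox15-/- and 7.06 to 10.3 CPM in WT. All points come from the same 8 libraries, and the likeness is a description.

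Irf3, the partner of Irf7 in the same sensing pathway but present before any stimulus, was at 50.9, 56.7, 61.7 and 61.9 CPM in Alox15-/- replicates 1 to 4 and at 52.1, 56.9, 63.7 and 62.1 CPM in WT replicates 1 to 4. The groups covered almost the same range. Its log2 fold change was -0.02 (95% interval -0.25 to 0.21, edgeR adjusted p = 0.984), and the sign turned with upper quartile scaling (0.0098). Irf3 (ENSMUSG00000003184.15; chromosome 7, 44997648 to 45002848) overlaps Bcl2l12 at its 5′ end only. The log2 ratio of Irf7 to Irf3 counts within a library was -2.05, -2.12, -2.65 and -2.79 in the libraries labelled Alox15-/- and -3.98, -4.30, -3.37 and -3.46 in WT. The average ratio was -2.40 ± 0.373 (SD, n = 4) in the former and -3.78 ± 0.442 (SD, n = 4) in the latter. They differed by 1.38 without any overlap, and library size has no part in such a ratio.

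**Figure D2:**
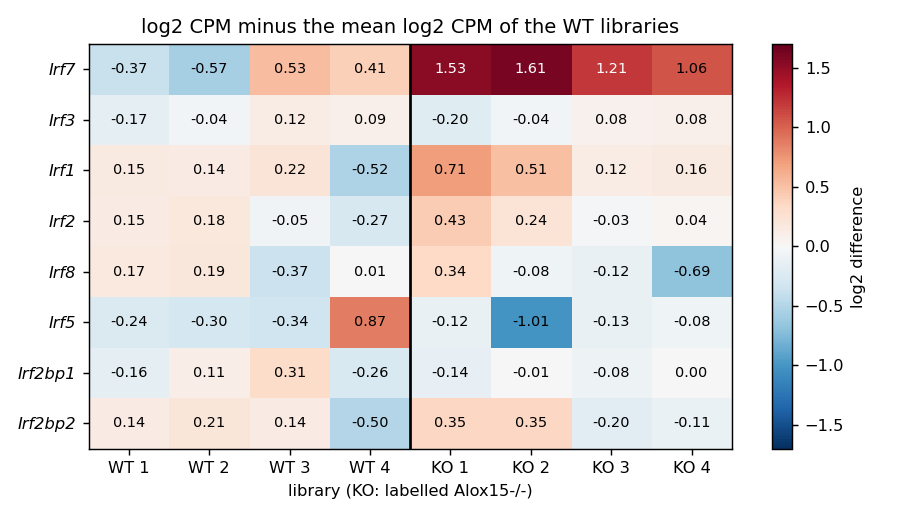
Log2 CPM of each member in each library minus the mean log2 CPM of the 4 WT libraries, with WT libraries on the left and libraries labelled Alox15-/- (KO) on the right. The Irf7 row is between 1.06 and 1.61 in the libraries labelled Alox15-/-, whereas the Irf3 row stays between -0.20 and 0.12 in all 8.

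Irf1, the activator induced by interferon-γ, was at 117, 102, 77.9 and 80.0 CPM in Alox15-/- replicates 1 to 4 and at 79.8, 79.3, 83.7 and 49.9 CPM in WT replicates 1 to 4. Alox15-/- replicates 1 and 2 were above all WT libraries, replicates 3 and 4 lay among them, and WT replicate 4 was below all others. The log2 fold change was 0.35 (95% interval 0.0027 to 0.70, unadjusted p = 0.0485 and edgeR adjusted p = 0.635), and the exact permutation test gave p = 0.229. Without WT replicate 4 the log2 fold change was 0.22. Irf1 (ENSMUSG00000018899.16; chromosome 11, 53770014 to 53778374) is the member on the chromosome of Alox15, 16.57 Mb away, and the part of this position was not tested.

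Irf2, the antagonist of Irf1 at shared sites, was at 62.3, 54.3, 45.0 and 47.3 CPM in the libraries labelled Alox15-/- and at 51.0, 52.2, 44.4 and 38.2 CPM in WT. Its log2 fold change was 0.16 (95% interval -0.12 to 0.45, edgeR adjusted p = 0.835), and it was 0.087 without WT replicate 4 and 0.069 without Alox15-/- replicate 1. Irf2 (ENSMUSG00000031627.9; chromosome 8, 46739732 to 46847458) is the longest member gene, and no annotated gene overlaps its 3′ end. As for Irf1, Alox15-/- replicates 1 and 2 were the highest libraries and WT replicate 4 the lowest. The log2 ratio of Irf1 to Irf2 counts was 0.84 ± 0.080 (SD, n = 4) against 0.64 ± 0.217 (SD, n = 4), with Alox15-/- libraries between 0.76 and 0.91 and WT libraries between 0.39 and 0.92. The balance of the pair therefore overlapped between the groups.

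Irf8 was at 506, 378, 367 and 247 CPM in Alox15-/- replicates 1 to 4 and at 449, 454, 309 and 401 CPM in WT replicates 1 to 4. The groups overlapped, and the spread was widest in the libraries labelled Alox15-/-, where the highest was 2.05 times the lowest. The log2 fold change was -0.11 (95% interval -0.48 to 0.27, edgeR adjusted p = 0.923), and without Alox15-/- replicate 4 it was 0.050. The whole of Irf8 (ENSMUSG00000041515.10; chromosome 8, 120736358 to 120756694) lies within Gm20388, annotated on the same strand and counted at 2158 to 2927 CPM in the 8 libraries, so the level of Irf8 depends on how shared reads were assigned. Spi1, the gene of PU.1, a DNA-binding partner of IRF8 in myeloid and B cells, did not pass the filter, with 54 counts in the libraries labelled Alox15-/- together and 32 in WT.

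Promoters of Irf1, Irf8 and Irf2 are shown for comparison with Irf7, since interferon and cytokine receptors act on such genes through GAS elements and ISREs. Each is the 250 bases before the first RefSeq start site on the plus strand of GRCm38.p6, at chr11:53769764-53770013, chr8:120736108-120736357 and chr8:46739495-46739744. Capitals mark matches to the GAS letters TTCNNNGAA and, in Irf2, also to the ISRE core.
Irf1: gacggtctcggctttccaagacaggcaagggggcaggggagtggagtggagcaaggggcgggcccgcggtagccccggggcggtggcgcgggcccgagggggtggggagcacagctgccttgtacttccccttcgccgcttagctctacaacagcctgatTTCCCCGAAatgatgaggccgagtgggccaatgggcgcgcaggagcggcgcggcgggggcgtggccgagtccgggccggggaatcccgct
Irf8: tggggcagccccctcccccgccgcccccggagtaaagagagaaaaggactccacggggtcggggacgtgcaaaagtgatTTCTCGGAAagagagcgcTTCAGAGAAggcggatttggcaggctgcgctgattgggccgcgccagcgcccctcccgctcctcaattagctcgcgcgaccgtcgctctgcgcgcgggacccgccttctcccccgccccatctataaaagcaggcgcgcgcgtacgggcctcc
Irf2: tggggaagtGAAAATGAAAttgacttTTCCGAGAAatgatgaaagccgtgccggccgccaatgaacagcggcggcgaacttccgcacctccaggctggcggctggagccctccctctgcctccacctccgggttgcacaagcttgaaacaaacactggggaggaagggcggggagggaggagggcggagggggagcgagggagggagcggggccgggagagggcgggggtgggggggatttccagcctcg
The GAS letters began 90 bases before the start site in Irf1, 171 and 153 bases before it in Irf8, and 224 bases before it in Irf2, whose ISRE core began at 241 and overlaps a match to the ETS-IRF composite element, searched as GGAA and GAAA that any 2 bases separate (2.72% of all windows on either strand) at 247. Irf2bp1 also held GAS letters, 59 bases before its start, and Irf3, Irf5 and Irf2bp2 held no match to these 3 sequences. Irf8 also held TATAAA, printed here in lower case, 31 bases before its start.

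Irf5, which acts downstream of Toll-like receptors in myeloid and B cells, was at 11.6, 6.24, 11.5 and 11.9 CPM in Alox15-/- replicates 1 to 4 and at 10.7, 10.3, 9.99 and 23.1 CPM in WT replicates 1 to 4. One library of each group stood apart, Alox15-/- replicate 2 on the low side and WT replicate 4 on the high side. The log2 fold change was -0.33 (95% interval -0.93 to 0.27, edgeR adjusted p = 0.838), and it turned to 0.032 without WT replicate 4. In that library the myeloid marker sum was 20.4 CPM, the highest of the WT group (14.1 to 20.4 CPM), and the B-cell markers other than Ighm, chosen after Irf5 had been seen, summed to 17.0 CPM, within the 11.5 to 27.6 CPM of the WT group and above the 7.0 to 10.4 CPM of the libraries labelled Alox15-/-. Their part in the Irf5 value was not tested. The last 1045 bases of Irf5 (ENSMUSG00000029771.12; chromosome 6, 29526625 to 29541871) overlap Tnpo3 on the other strand, and WT replicate 4 held 119 CPM of Tnpo3, within the 98.5 to 119 CPM of the WT group.

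WT replicate 4 differed from the other WT libraries in further genes that the lists name. Tnfaip3, a feedback inhibitor of NF-κB, was at 104 CPM there and at 36.5 to 43.1 CPM in the other WT libraries. Atf3, a stress-induced repressor, was at 43.7 CPM against 13.2 to 21.1 CPM, and Junb at 404 CPM against 210 to 257 CPM.

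Irf2bp1 and Irf2bp2, which encode corepressors that bind the C-terminal part of IRF2, gave no call. Irf2bp1 was at 26.3, 28.8, 27.4 and 29.1 CPM in the libraries labelled Alox15-/- and at 26.0, 31.2, 36.0 and 24.1 CPM in WT, with a log2 fold change of -0.08 (95% interval -0.39 to 0.22, edgeR adjusted p = 0.930). Irf2bp1 was the steadiest member in the libraries labelled Alox15-/-, between 26.3 and 29.1 CPM. In WT its highest library was 1.49 times its lowest, where that ratio was 1.225 for Irf3. Irf2bp2 was at 228, 227, 156 and 165 CPM in the libraries labelled Alox15-/- and at 197, 206, 197 and 127 CPM in WT, with a log2 fold change of 0.09 (95% interval -0.25 to 0.43, edgeR adjusted p = 0.934). Both signs rested on 1 library, since Irf2bp1 was at 0.043 without WT replicate 3 and Irf2bp2 at -0.043 without WT replicate 4. Irf2bp2 (ENSMUSG00000051495.7; chromosome 8, 126588296 to 126593986) shares its 3′ end with the antisense gene Gm26759, while Irf2bp1 (ENSMUSG00000044030.4; chromosome 7, 19004044 to 19006777), a gene of 1 exon, overlaps no annotated gene.

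**Figure D3:**
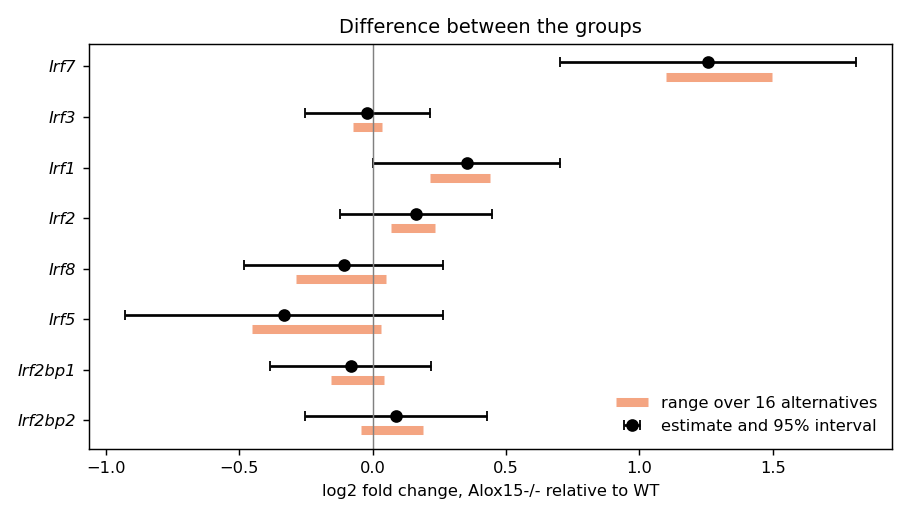
Log2 fold change of each member in the libraries labelled Alox15-/- relative to WT, as the edgeR estimate with its 95% interval (black) and the range over 16 alternative settings (orange bar). Irf7 has an interval from 0.70 to 1.81 and a range from 1.098 to 1.495, and the ranges of Irf3, Irf5, Irf8, Irf2bp1 and Irf2bp2 cross 0.

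Of the further genes of the family outside the members, Irf4 and Irf2bpl are given, chosen after their values had been seen. Irf4, the factor of activated and effector Tregs, was at 320, 229, 245 and 197 CPM in the libraries labelled Alox15-/- and at 321, 295, 254 and 425 CPM in WT, with a log2 fold change of -0.38 (95% interval -0.73 to -0.04, edgeR adjusted p = 0.560). Without WT replicate 4, its highest library, Irf4 was at -0.22 (edgeR adjusted p = 0.743). Irf2bpl, a relative of Irf2bp1 and Irf2bp2, had a log2 fold change of 0.20 (95% interval -0.06 to 0.46). Both were short of the adjusted threshold.

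The genes upstream of IRF3 and IRF7 were read from a list of 21 sensors, adaptors and kinases, of which 16 were tested. By edgeR 0 of the 16 passed the adjusted threshold, as with DESeq2 and limma-voom, while 2 had an unadjusted p under 0.05, as had 7.84% of all genes tested. The list median was -0.0071 on the log2 scale, close to the -0.0075 of all genes tested, and was 0.03 without WT replicate 4. Zbp1, a sensor of Z-form nucleic acid that is itself raised by interferon, had the highest log2 fold change, 0.58 (edgeR adjusted p = 0.240), at 31.6, 47.2, 34.4 and 29.8 CPM in the libraries labelled Alox15-/- and 25.6, 26.7, 25.7 and 16.2 CPM in WT, without overlap. At the other end Tlr7, the endosomal receptor of single-stranded RNA, was at -0.32 (adjusted p = 0.702), and Mavs, the adaptor of the RIG-I-like sensors, at -0.32 (adjusted p = 0.560), with 24.1 to 26.1 CPM in the libraries labelled Alox15-/- and 26.9 to 36.2 CPM in WT, also without overlap. The groups were apart for 2 of the 16 tested genes, in opposite directions, and for 5.25% of all genes tested in either direction. The kinases that phosphorylate IRF3 and IRF7 were at 0.12 for Tbk1 (0.03 without WT replicate 4) and -0.01 for Ikbke.

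Of 9 interferon ligand genes, Ifng was the one present in the count table, and it was tested. The type I interferon genes of the list have no row there, so their level is not known. Interferon-γ, the product of Ifng, is the main inducer of Irf1, and Ifng was at 21.7, 10.6, 9.46 and 5.18 CPM in Alox15-/- replicates 1 to 4 against 4.55, 6.57, 2.02 and 7.76 CPM in WT. It did not pass (log2 fold change 1.20, 95% interval 0.30 to 2.09, edgeR adjusted p = 0.385). Among 11 genes of interferon receptors and the factors that signal from them, all tested, 0 passed by edgeR, DESeq2 or limma-voom and 1 had an unadjusted p under 0.05, Ifngr1, with a log2 fold change of 0.38 (edgeR adjusted p = 0.473). Such an unadjusted p was found for 7.84% of all genes tested. Tyk2 was lowest at -0.07, and the list median was 0.08, which turned to -0.04 without WT replicate 4.

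**Figure D4:**
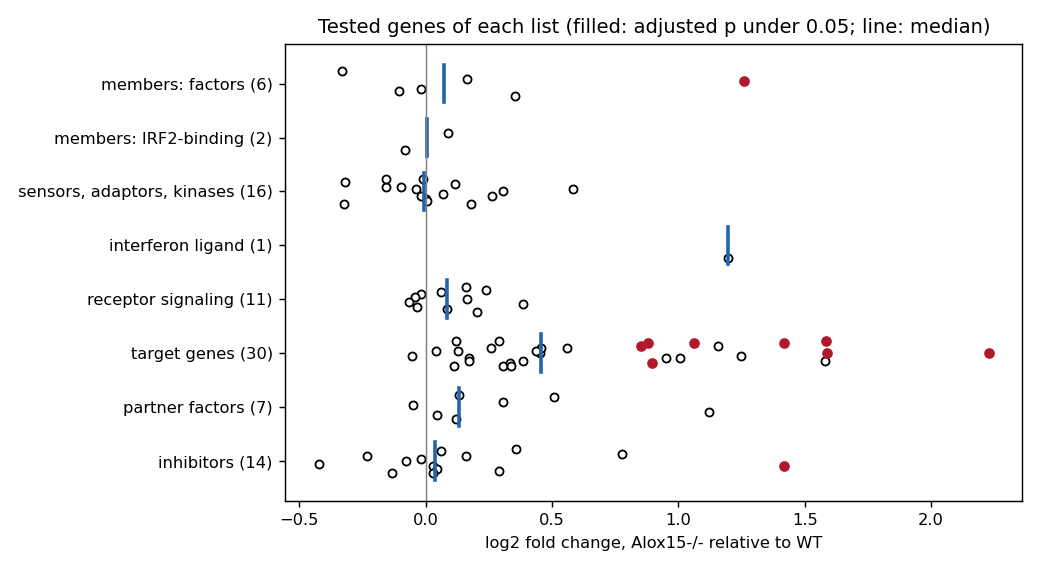
Log2 fold change (libraries labelled Alox15-/- relative to WT) of each tested gene in the 2 groups of members and 6 pathway lists, with the number tested in parentheses, filled red points for an adjusted p under 0.05 and a blue line at the list median. The target genes have a median of 0.45 and 8 filled points, while sensors and receptors have medians of -0.0071 and 0.08 and none.

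Of the 6 pathway lists that of IRF target genes held the most calls. Of 38 listed targets 30 were tested, 8 passed the adjusted threshold (26.7%, where 1.24% of all genes tested passed), and all 8 were higher in the libraries labelled Alox15-/-. In 29 of the 30 the log2 fold change was above 0, as in 48.2% of all genes tested, with a median of 0.45. The list was written with earlier results of these data known and is not independent evidence of a direction. Without WT replicate 4 there were 9 called of 29 tested, with a median of 0.40, and the number fell to 5 without Alox15-/- replicate 3 and without WT replicate 1. The myeloid, mast cell, basophil, erythroid, eosinophil, NK and γδ T-cell marker sums given above were higher and those of T-cells and of B cells other than Ighm lower in the same 4 libraries, and their part in the target genes was not tested.

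Xaf1, an interferon-raised gene whose product counteracts inhibitors of apoptosis, had the largest difference among the targets. It was at 9.90, 11.9, 12.7 and 9.64 CPM in the libraries labelled Alox15-/- and at 2.67, 2.08, 2.82 and 1.47 CPM in WT (log2 fold change 2.23, edgeR adjusted p = 1.05e-04). Isg15, a ubiquitin-like modifier, was at 5.31, 10.6, 6.997 and 6.62 CPM against 1.88, 1.92, 2.32 and 3.78 CPM, and Ifit3, which binds foreign RNA complexes, was at 7.97, 16.8, 9.27 and 5.47 CPM against 4.08, 2.56, 3.03 and 3.15 CPM. Usp18, which removes ISG15 and damps the type I interferon receptor, was at 10.1, 26.9, 16.8 and 10.6 CPM against 5.17, 6.89, 5.75 and 5.88 CPM. In these 4 genes each library labelled Alox15-/- was above each WT library, as in 12 of the 30 tested targets and in 2.74% of all genes tested. The immunity-related GTPase Irgm2 (1.06) and the guanylate-binding protein genes Gbp5 (0.90) and Gbp2 (0.88) followed among the called targets, with Ifi27 at 0.85. With 1 library at a time removed, Xaf1, Irgm2, Gbp5 and Ifi27 passed in all 8 refits. Isg15 did not pass without WT replicate 1 or 2, Usp18 without Alox15-/- replicate 3 or WT replicate 1, Ifit3 without Alox15-/- replicate 2 or 3 or WT replicate 2 or 3, and Gbp2 without Alox15-/- replicate 1, 2 or 3 or WT replicate 1. Among the 8 alternatives that kept all libraries, Ifit3 and Gbp2 each passed in 7 and the other called targets in all 8. Ifi44 was lowest at -0.06 (edgeR adjusted p = 0.988).

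Of the tested targets 26 had a RefSeq promoter window, and 14 of these (53.8%) held the ISRE core on either strand, against 3.44% of all windows. The first share counts genes, of which Gbp3 and Ifit2 have 2 windows each, and the second counts windows. Because the list was chosen as IRF targets, a higher share follows from that choice and says nothing about these libraries. The core was found in 5 of the 6 called targets with a window and in 9 of the 20 that were not called, a description from which no test was made. The first match in each of the 5 called targets is shown, as 30 bases on the strand of the gene with the ISRE core or its reverse complement in capitals, at chr4:156200877-156200906, chr19:34583363-34583392, chr11:58214903-58214932, chr3:142496759-142496788 and chr3:142620594-142620623 of GRCm38.p6. The genes Isg15 and Socs1 lie on the minus strand and the others on the plus strand.
Isg15: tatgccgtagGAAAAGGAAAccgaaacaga
Ifit3: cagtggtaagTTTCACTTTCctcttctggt
Irgm2: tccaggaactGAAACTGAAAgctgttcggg
Gbp5: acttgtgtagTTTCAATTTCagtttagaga
Gbp2: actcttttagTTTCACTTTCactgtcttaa
Sites of 2 targets that were not called, Ifit1 (chr19:34640775-34640804, log2 fold change 0.46, edgeR adjusted p = 0.414) and Socs1 (chr16:10785600-10785629, 0.29, adjusted p = 0.458), are of the same kind.
Ifit1: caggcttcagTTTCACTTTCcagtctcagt
Socs1: agacttgccgGAAAGAGAAAccgaaagcgg
The core of Ifit1 has the same 10 letters as those of Ifit3 and Gbp2. Xaf1, the target with the largest difference, had no match in its window.

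Among 9 partner factors of IRFs 7 were tested, and 0 passed by edgeR, DESeq2 or limma-voom while 1 had an unadjusted p under 0.05 (7.84% of all genes tested), Batf3. This partner of IRF8 in dendritic cells was at 6.76, 14.1, 13.8 and 5.04 CPM in the libraries labelled Alox15-/- and 5.02, 4.00, 5.85 and 2.52 CPM in WT (log2 fold change 1.12, edgeR adjusted p = 0.231). Junb was lowest at -0.05, and it turned to 0.18 without WT replicate 4. Of 14 inhibitors of IRF signaling, all tested, 1 passed (7.14%, where 1.24% of all genes tested passed), Usp18, which is also on the target list. An unadjusted p under 0.05 was found for 5 of the 14, 4 higher and 1 lower, and for 7.84% of all genes tested. Tnfaip3 was lowest at -0.42 (edgeR adjusted p = 0.782), and was at 0.039 without WT replicate 4, its highest library.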

How the data were processed

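The table that the authors deposited holds raw, unnormalized counts by gene symbol for 4 libraries labelled Alox15-/- and 4 labelled WT. The submitters' processing notes name Bowtie, edgeR and GRCm38 without roles, whereas the counting tool, its strand setting and the removal of duplicates are not given in the sources used here. The labels name a small RNA kit where the methods name a MACE kit. Library totals were between 3723151 and 9538962, and replicate libraries of a group differed by more than counting noise.

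A gene was tested if it reached 2 CPM in 4 or more libraries, as in the study's methods. Groups were compared with edgeR 4.0.16 (TMM scaling, quasi-likelihood, group as the only term) in R 4.3.3. Standard errors are the log2 fold change divided by the square root of F, and intervals are 95%. The fit was tested on simulated counts in which all genes had the same dispersion and no library was outlying. That test therefore does not cover genes with a wide spread or a library such as WT replicate 4. Alternatives were DESeq2 scaling, upper quartile scaling, no filter, filterByExpr, DESeq2 1.42.0, limma-voom (limma 3.58.1), a robust fit, the replicate number as a block and each library left out. Named genes are the 8 members, in each list up to 6 called genes and the highest and lowest tested gene, the 5 genes nearest to a called member, and overlapping genes. Mavs, Tbk1, Ikbke, Gbp2, Ifi27, Atf3, Spi1, Ifit1, Socs1, Irf4 and Irf2bpl were added after their values were seen, and 1 further gene of the family is not reported here. The members and lists were chosen with earlier results of these data known. Positions came from GENCODE M21 and promoter windows from RefSeq, both GRCm38, which matched all 8 members.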

Additional observations from a re-analysis of the deposited data

Results flagged for a closer look

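In 4 of the 16 member and group combinations 1 library lay so far from the other 3 that its gap exceeded Dixon's critical value for 4 samples, a limit that chance exceeds in about 1 in 20 groups. WT replicate 4 held 3 of these, with Irf1 at 49.9 CPM (the other WT libraries were at 79.3 to 83.7 CPM), Irf5 at 23.1 CPM (9.99 to 10.7 CPM) and Irf2bp2 at 127 CPM (197 to 206 CPM). The fourth was Irf5 at 6.24 CPM in Alox15-/- replicate 2, where the other libraries of the group were at 11.5 to 11.9 CPM. Over all genes tested WT replicate 4 was the distant library for 2.34%, WT replicate 3 for 2.25%, and each of the other 6 libraries for 0.677% to 1.46%.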

How the results depend on the processing

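Without the filter on low counts 388 genes passed instead of 158, and there 15 target genes, 2 inhibitors, 1 sensor, 1 ligand and 1 partner passed. DESeq2 called 2 inhibitors. Leaving out 1 library at a time gave 86 to 172 genes (86 without Alox15-/- replicate 2, 93 without 3, 95 without 1 and 105 without WT replicate 2), 0 to 1 members, 5 to 9 target genes and 0 to 2 inhibitors. The log2 fold change of Irf7 was between 1.098 and 1.495 in these fits, and that of Irf3 between -0.073 and 0.037, of Irf5 between -0.45 and 0.032, of Irf8 between -0.29 and 0.050, of Irf2bp1 between -0.16 and 0.043 and of Irf2bp2 between -0.043 and 0.19, so each of these 5 changed sign in at least 1 fit. With upper quartile scaling Irf3 was at 0.0098. Irf1 and Irf2 kept their direction and stayed short of the threshold in all 16 alternatives. With the replicate number as a block, Irf7 was at 1.29 (edgeR adjusted p = 0.0519) and 0 members passed. Same-numbered libraries deviated from their group means with correlations of 0.069, 0.165, -0.178 and -0.018, and the numbers are not said to mark shared mice or days, so they were not taken as pairs. Irf7 passed in the other 7 alternatives that kept all libraries, with adjusted p from 8.38e-05 without the filter to 0.0258 with limma-voom. The cause of these changes was not tested. Irf7, at 18 to 62 counts per library, and Irf5, at 23 to 110, are the least deeply counted members.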
